A study of Homo sapiens with 9 samples.

Results

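The comparison asked what changes when the same edited clone is taken through the neural crest protocol again. Differentiation R5 of clone S9CC47 was set against differentiation R6 of that clone, using every library the labels give to either: 6 of the 9 libraries of the series, 3 for each differentiation. The cells were cranial neural crest cells (CNCCs) made in culture from H9, a widely used embryonic stem cell line. Clone S9CC47 carries a biallelic tag on SOX9, made of FKBP12-F36V, mNeonGreen and V5, so that the small molecule dTAGV-1 sends SOX9 protein to degradation. Each differentiation was 1 culture, sampled at 0h (DMSO vehicle), and at 3h and 24h of 500 nM dTAGV-1, where the labels give relative SOX9 levels of 100%, 0% and 0%. All cultures grew in the same medium, with bFGF, EGF, BMP2 and the GSK3 inhibitor CHIR-99021. In all 6 libraries RNA was labelled with 100 uM 4-thiouridine for 2 h, starting 1 h and 22 h after dTAGV-1 in the 3h and 24h libraries, so that reads from newly made RNA carry T>C conversions (SLAM-seq).

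The 3 times served as 3 pairs, and differences are given as R5 minus R6. Because each differentiation is represented by 1 culture, a p-value here measures the spread between libraries of these cultures and not the spread that a further differentiation of the clone would add. S9CC13_R6 is another clone of the tagged line, labelled with differentiation R6. Its 3 libraries entered the expression filter, the size factors, the estimate of the spread and the surrogate variable described below. Their values are set beside those of S9CC47 for some genes. In bulk RNA, fewer cells of a type and less RNA per cell cannot be told apart.

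Neural crest cells arise at the border of the neural plate, leave the neural tube and migrate, and in the head they form most of the facial skeleton. Their place along the head is recorded by homeobox and T-box factors. Cranial crest of the first pharyngeal arch and frontonasal region lacks HOX expression, and BMP, WNT, FGF and endothelin signals set which homeobox genes are used in each part of the face. In culture, neural crest can also move toward contractile, smooth muscle-like mesenchyme under TGF-beta.

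Total reads per library ran from 16955633 to 28782678, and T>C reads from 3411782 to 5475800. Reads with a T>C conversion made up 19.6% ± 1.24 of the library in R5 and 19.9% ± 1.29 in R6 (SD, n = 3 each), a difference of -0.31 percentage points (exact two-sided permutation test, p = 0.8, smallest possible 0.1). All 15 markers fixed for CNCCs were measured and none was called different (PRRX1 and DLX2 were called higher and ALX4 and TFAP2B lower with the surrogate variable described below, and PRRX1 and DLX2 with DESeq2), with a summed level of 4629 to 5977 CPM in R5 and 4736 to 6729 CPM in R6. SOX9 itself, the tagged gene on chromosome 17 (72121020 to 72126416, hg38), read 803, 1206 and 1656 CPM in R5 at 0h, 3h and 24h, and 831, 1470 and 1786 CPM in R6. These ranges overlap, and the log2 fold change of -0.15 ± 0.09 (SE) had an adjusted p of 0.61 in edgeR's quasi-likelihood test. dTAGV-1 acts on the protein, so SOX9 RNA does not check the depletion.

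Of 11710 protein-coding genes tested in total reads, 68 (0.581%) were called at an adjusted p under 0.05, 42 higher in R5 (0.359%) and 26 lower (0.222%), and 1199 had an unadjusted p under 0.05. Calls moved with the setting: 154 with DESeq2 and 268 (2.29%) with 1 surrogate variable added to the model (1.4% of genes higher and 0.888% lower), a covariate the study's own SLAM-seq model also carried. The surrogate variable was computed from these same counts and added after the data were seen. Calls and adjusted p-values given with it describe this dependence and are not independent evidence. With only the 6 S9CC47 libraries 18 genes were called. The calls also rested on single libraries: 3 genes were called without R5 at 3h, 17 to 23 without R5 at 24h, R6 at 3h or R6 at 24h, and 610 without R6 at 0h, and without times as pairs 1 gene was called. All 68 had the same sign at 0h, 3h and 24h, and in 50 of them the 3 R5 values did not overlap the 3 R6 values, as held for 623 (5.32%) and 617 (5.27%) of all genes tested in the higher and lower direction. The called genes had a median absolute log2 fold change of 0.94, from 0.42 to 3.98, while the median over all genes tested was 0.12. The median log2 fold change of each chromosome lay between -0.06 and 0.07, with chromosome 13 lowest and chromosome 22 highest.

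Of 49 lists, 16 held a called gene. Lists are described by how many of their tested members were called and by their median log2 fold change, to be read beside the shares above and the median of -0.01 over all genes tested.

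**Figure D1:**
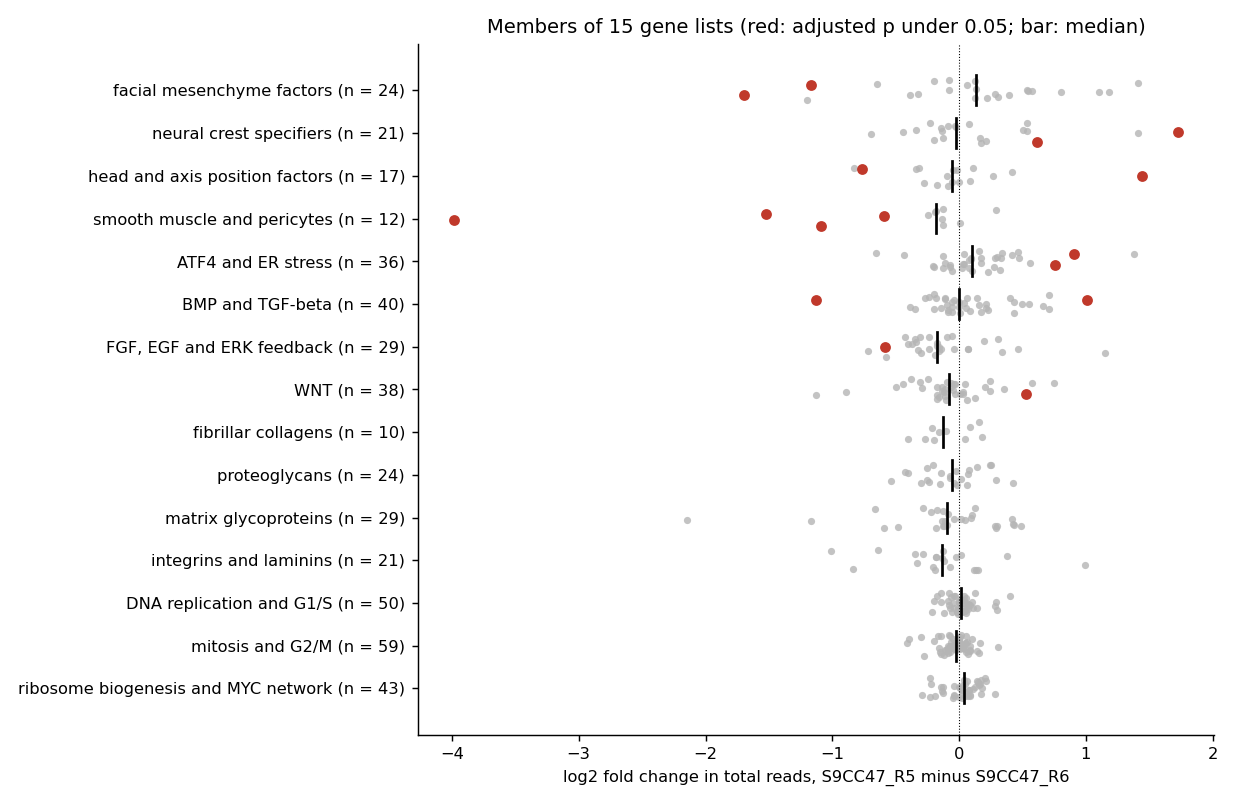
Each point is 1 tested gene of a list, placed by its log2 fold change in total reads (R5 minus R6); red points had an adjusted p under 0.05 and the black bar is the median of the list. Members of the 3 transcription factor lists and the smooth muscle list reach beyond 1 in size. So do members of the matrix glycoprotein, integrin and laminin, ATF4, BMP, FGF and WNT lists. All 50 DNA replication genes and all 43 ribosome biogenesis genes lie within 0.5 of 0.

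Facial mesenchyme factors are the homeobox, T-box, forkhead and paired-domain proteins that give facial primordia their identity. Of the 24 tested members, 2 were lower in R5 and none higher, with a median of 0.13. SHOX2, a homeobox factor of palate and limb mesenchyme on chromosome 3 (158095905 to 158106420), read 10.4, 12.1 and 16.9 CPM in R5 at 0h, 3h and 24h and 33.1, 38.4 and 57.0 CPM in R6 (CPM, read counts scaled to library size with TMM factors). Every R5 value was below every R6 value, and R5 fell 3.24-fold below R6 (log2 fold change -1.70 ± 0.11, adjusted p = 3.1e-05). The per-time differences of -1.67, -1.66 and -1.75 were nearly equal, and S9CC13_R6 read 23.9, 32.6 and 43.9 CPM, between the S9CC47 cultures.

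TBX2, a T-box repressor of proliferating mesenchyme on chromosome 17 (61399843 to 61409466), read 28.7, 32.8 and 20.2 CPM in R5 and 70.1, 67.6 and 45.8 CPM in R6. The groups did not overlap, and TBX2 was 2.24-fold lower in R5 (log2 -1.17 ± 0.10, adjusted p = 0.00063), while S9CC13_R6 read 84.7, 74.9 and 60.4 CPM. Both falls were also present in T>C reads, at -1.78 for SHOX2 (adjusted p = 3.2e-07) and -1.14 for TBX2 (adjusted p = 1.2e-05). Together with SYT1, described below, these named calls lost significance in 1 of 17 other settings each. For SHOX2 and TBX2 it was the fit without times as pairs, where the adjusted p was 0.089 for SHOX2 and 0.12 for TBX2.

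With the surrogate variable, 5 facial mesenchyme factors were called higher in R5 (TBX3, PRRX1, LHX6, DLX1 and DLX2) and 5 lower (SHOX2, TBX2, SIX2, FOXC1 and ALX4). DLX1 and DLX2, neighbouring homeobox genes of the pharyngeal arches, read 5.95 to 8.31 and 4.08 to 5.69 CPM in R5 against 2.18 to 3.97 and 0.959 to 2.76 CPM in R6. Neither pair of ranges overlapped, and without the surrogate variable the adjusted p was 0.086 for each. FOXC1, a forkhead factor of periocular and cranial mesenchyme, read 118, 126 and 78.0 CPM in R5 and 173, 152 and 98.3 CPM in R6, with overlapping ranges (log2 -0.38, adjusted p = 0.085, or 0.00071 with the surrogate variable).

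**Figure D2:**
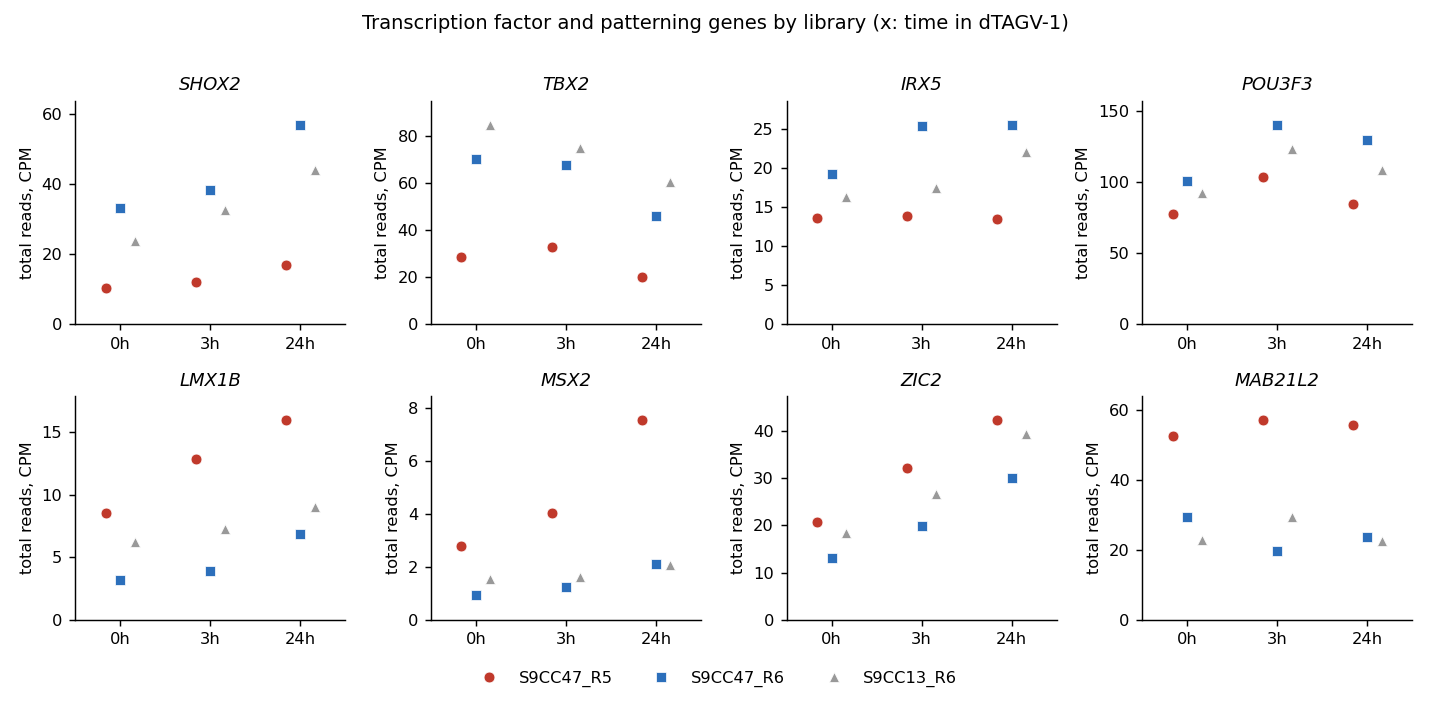
Total reads in CPM (TMM-scaled, y axis from 0) of 8 called genes at 0h, 3h and 24h (x axis), 1 point per library. SHOX2, TBX2, IRX5 and POU3F3 were lower in S9CC47_R5 (red circles) than in S9CC47_R6 (blue squares) at each time, and LMX1B, MSX2, ZIC2 and MAB21L2 were higher; S9CC13_R6 is shown in grey.

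Head and axis position factors include the OTX, EN, IRX, MEIS and PBX proteins that divide the neural axis. Among 17 tested, 1 was higher in R5 and 1 lower. LMX1B, a LIM homeobox factor of the isthmus and of dorsal limb and periocular tissue on chromosome 9 (126613928 to 126701032), read 8.55, 12.8 and 15.9 CPM in R5 and 3.17, 3.87 and 6.89 CPM in R6. The groups did not overlap, and LMX1B was 2.71-fold higher in R5 (log2 1.44 ± 0.17, adjusted p = 0.0038, T>C reads 2.08). IRX5, an Iroquois homeobox factor of craniofacial tissue on chromosome 16 (54930865 to 54934485), read 13.6, 13.9 and 13.4 CPM in R5 and 19.3, 25.4 and 25.6 CPM in R6. It fell in R5 by 0.77 on the log2 scale (adjusted p = 0.027), and IRX3 of the same cluster had -0.28 with an adjusted p of 0.22, or 0.024 with the surrogate variable.

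HOX genes, which mark crest caudal to the first arch, were near 0 in both differentiations. None of 39 reached the level for testing, 19 had no read in any of the 6 libraries, and together they summed to 0.414 to 0.708 CPM in R5 and 0.350 to 0.505 CPM in R6. In the retinoic acid list (11 tested, none called, median -0.03) the binding proteins CRABP2 and CRABP1 had log2 fold changes of -0.03 (adjusted p = 0.98) and -0.11 (adjusted p = 0.87).

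Neural crest specifiers, the transcription factors that turn border cells into crest, had 21 tested members, with 2 higher in R5 and none lower, and a median of -0.03. MSX2, a homeobox target of BMP signalling on chromosome 5 (174724582 to 174730896), read 2.81, 4.04 and 7.54 CPM in R5 and 0.922, 1.23 and 2.10 CPM in R6. The 3 R5 values lay above the 3 R6 values, a 3.31-fold difference (log2 1.73 ± 0.26, adjusted p = 0.014). ZIC2, a zinc finger factor of the neural plate border on chromosome 13 (99981784 to 99986765), read 20.7, 32.0 and 42.2 CPM in R5 and 13.1, 19.9 and 29.9 CPM in R6, higher at each matched time though the ranges overlap (log2 0.61 ± 0.10, adjusted p = 0.024). The central CNCC factors were not called: TWIST1 differed by -0.03, TFAP2A by -0.20, NR2F1 by 0.17 and PAX7 by -0.13 on the log2 scale, with adjusted p-values of 0.94, 0.53, 0.52 and 0.76. The surrogate variable added SNAI1, TWIST2, SOX8 and TFAP2C to the higher genes and PAX3 and TFAP2B to the lower ones.

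Other regulators were also called. MAB21L2, an eye and branchial arch gene on chromosome 4 (150582151 to 150584693), read 52.6, 57.1 and 55.8 CPM in R5 and 29.4, 19.6 and 23.6 CPM in R6 (log2 1.19, adjusted p = 0.0069). HMX1, a homeobox factor of the lateral face and external ear, was 1.24 higher (adjusted p = 0.027), and the zinc finger repressor BCL11A 0.67 higher (adjusted p = 0.019). POU3F3, a POU factor of neural tissue and upper pharyngeal arches, was 0.48 lower in R5 (adjusted p = 0.025), and the LIM-only protein LMO3 0.92 lower (adjusted p = 0.038). SYT1, the synaptic calcium sensor, read 2.02, 2.93 and 2.71 CPM in R5 and 8.34, 9.25 and 8.56 CPM in R6 (log2 -1.76, adjusted p = 0.0031), and of the 11 tested neuron markers it was the 1 called. Its call was lost without R5 at 3h (adjusted p = 0.075).

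Of the 12 tested smooth muscle and pericyte markers, 4 were lower in R5 and none higher, and the 16 markers together summed to 703 to 761 CPM in R5, 873 to 969 CPM in R6 and 725 to 927 CPM in S9CC13_R6. ACTG2, the smooth muscle gamma actin, had 5, 2 and 2 reads in R5 at 0h, 3h and 24h and 68, 53 and 47 in R6. Over the 3 libraries of each group that is 9 reads against 168, and R6 was 16.3-fold higher per read sequenced (exact 95% interval 8.37 to 36.2, counting error only). ACTG2 was called (log2 -3.98 ± 0.48, adjusted p = 0.0038), and S9CC13_R6, at 0.719, 1.10 and 0.459 CPM, lay between R5 (0.0791 to 0.305) and S9CC47_R6 (1.83 to 2.97).

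TAGLN, the actin-binding protein transgelin, read 17.9, 12.4 and 10.7 CPM in R5 and 31.4, 34.8 and 49.8 CPM in R6 (log2 -1.52, adjusted p = 0.048), with -0.81 at 0h, -1.48 at 3h and -2.21 at 24h. S9CC13_R6 was on the side of R5 here, at 20.6, 10.4 and 13.3 CPM. RGS5, a pericyte regulator of G protein signalling, was 1.09 lower (adjusted p = 0.0029) and TPM1, a tropomyosin, 0.59 lower (adjusted p = 0.0081). ACTA2, CNN1, CALD1 and MYLK, which define contractile smooth muscle, were not called, with log2 fold changes of -0.24, -0.18, -0.12 and 0.01 and adjusted p-values of 0.51, 0.85, 0.68 and 0.98. The call on TAGLN held in 7 of 17 other settings and lost significance in 10.

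ANKRD1, a cardiac ankyrin repeat protein much used as a readout of YAP and TEAD activity, moved in the same direction as the contractile genes. It read 2.63, 1.70 and 1.81 CPM in R5 and 8.08, 10.7 and 13.04 CPM in R6, 5.35-fold lower in R5 (log2 -2.42 ± 0.34, adjusted p = 0.014), and S9CC13_R6 read 4.08, 1.89 and 1.56 CPM. It was the only called gene among 18 tested Hippo readout genes (median -0.09). Other textbook YAP targets depended on the setting: CCN1 had a log2 fold change of -2.15 and CCN2 of -1.17, with adjusted p-values of 0.17 and 0.13, or 0.032 and 0.051 with the surrogate variable and 0.0061 and 0.045 with DESeq2. In the Hippo list CRIM1 was called beside ANKRD1 in both of those fits (adjusted p = 0.086 without them).

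**Figure D3:**
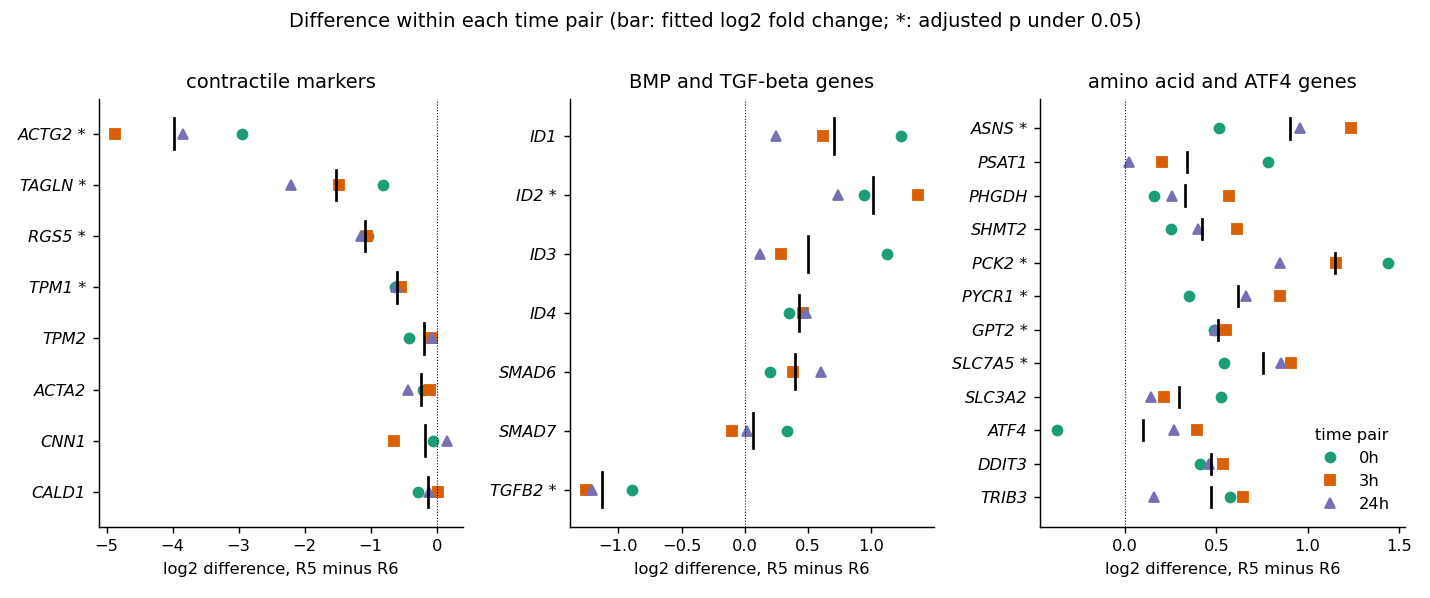
Each symbol is the log2 difference in total reads between R5 and R6 at 1 matched time (x axis), for contractile markers, BMP and TGF-beta genes and amino acid and ATF4 genes; black bars are fitted log2 fold changes and stars mark an adjusted p under 0.05. RGS5, TPM1 and GPT2 gave nearly the same difference at all 3 times, whereas ID1, ID3 and PSAT1 differed most at 0h. Genes were picked for display, with PCK2, PYCR1 and GPT2 from outside the ATF4 list. Others, such as MYLK and HERPUD1, are not shown. Fitted values of tested list members ran from -3.98 to 0.29 (smooth muscle), -1.13 to 1.01 (BMP and TGF-beta) and -0.66 to 1.38 (ATF4).

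Signalling genes differed one at a time. In the BMP and TGF-beta list (40 tested, median 0.00) ID2 was higher and TGFB2 lower. ID2, an inhibitor of helix-loop-helix factors that BMP induces, on chromosome 2 (8678845 to 8684461), read 78.1, 109 and 130 CPM in R5 and 40.7, 42.4 and 78.3 CPM in R6. The ranges overlap only where R6 at 24h reached R5 at 0h, and the fold was 2.02 (log2 1.01 ± 0.11, adjusted p = 0.0029, T>C reads 1.13). ID1 and ID3 had log2 fold changes of 0.71 and 0.50 with adjusted p-values of 0.15 and 0.53. With the surrogate variable these became 3.3e-05 and 1.1e-05, which is not independent evidence, as the variable comes from these same counts. BMP4, its receptor BMPR1A, SMAD1 and SMAD7 were near 0, at 0.00, 0.00, 0.05 and 0.06. TGFB2, a secreted TGF-beta ligand, read 3.12, 2.57 and 3.13 CPM in R5 and 5.79, 6.17 and 7.28 CPM in R6 (log2 -1.13, adjusted p = 0.034).

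EDN3, the ligand of the endothelin receptor that melanocyte and enteric crest use, read 43.6, 55.5 and 76.1 CPM in R5 and 19.7, 31.2 and 44.2 CPM in R6. It was higher in R5 at each time (log2 0.92 ± 0.11, adjusted p = 0.0043), and it was the 1 called gene among 17 tested PDGF, VEGF and endothelin genes. NKD1, an antagonist and target of WNT signalling, was 0.53 higher (adjusted p = 0.016) among 38 tested WNT genes (median -0.08). EPHA4, an ephrin receptor, was 0.59 lower (adjusted p = 0.024) among 29 FGF, EGF and ERK genes (median -0.17). IGFBP5, a binding protein that holds insulin-like growth factors in the matrix, was 1.09 lower (adjusted p = 0.021), with 5.37, 8.19 and 11.1 CPM in R5 and 9.22, 14.8 and 32.1 CPM in R6, and no other of 21 tested genes of the IGF system was called. In the Hedgehog and Notch list none of 24 was called, and GLI3 and HEY1 differed by 0.16 and 0.19 (adjusted p = 0.59 and 0.47).

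Structural matrix genes gave no call in the fit reported here, and a few in others. None of 10 fibrillar collagens (median -0.13), 21 other collagens (-0.01), 29 matrix glycoproteins (-0.10), 24 proteoglycans (-0.06), 25 crosslinking and collagen processing genes (0.04), 26 proteases and inhibitors (0.07) or 21 integrins and laminins (-0.13) passed the test. COL2A1, the cartilage collagen, read 338, 294 and 156 CPM in R5 and 320, 315 and 192 CPM in R6 (log2 -0.10, adjusted p = 0.75), and in both differentiations it was lowest at 24h. COL1A2 read 236, 203 and 296 CPM in R5 and 206, 252 and 425 CPM in R6 (log2 -0.22, adjusted p = 0.59). The large proteoglycan VCAN and the small one BGN differed by -0.04 and 0.07 (adjusted p = 0.88 and 0.87).

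Among the other abundant matrix genes, COL26A1, COL6A1, TGFBI, FBLN1, P4HB, PCOLCE, TIMP3, TIMP2, ITGB1 and LAMB1 had log2 fold changes between 0.02 for LAMB1 and 0.32 for COL6A1, with adjusted p-values of 0.14 or more. DESeq2 called DCN, CCN1, CCN2 and SPON1 lower. With the surrogate variable, DCN and GPC3 were lower, as were SPON1, AGRN, CCN1 and COL8A1, while COL6A1, SERPINH1 and HTRA3 were higher. DCN, the small proteoglycan decorin, read 113, 107 and 173 CPM in R5 and 131, 177 and 280 CPM in R6, with overlapping ranges (log2 -0.54, adjusted p = 0.051, or 0.0009 with the surrogate variable). COL8A1, a short-chain collagen, had 9, 0 and 0 reads in R5 at 0h, 3h and 24h and 51, 31 and 70 in R6. Pooled, R6 was 14.7-fold higher per read sequenced (exact 95% interval 7.55 to 32.8, counting error only), with an adjusted p of 0.11, 0.088 with DESeq2 and 0.0040 with the surrogate variable. Outside the lists, the secreted matricellular protein SMOC1 was called 1.10 lower (adjusted p = 0.00086) and CCBE1, a collagen and calcium-binding secreted protein, 0.60 lower (adjusted p = 0.014).

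Some genes of cell contacts were called, of which GJA1 and CD24 belong to no list and were picked after their values were seen. GJA1, the gap junction protein connexin 43, read 175, 148 and 148 CPM in R5 and 242, 227 and 215 CPM in R6, with no overlap (log2 -0.54 ± 0.08, adjusted p = 0.0081). CDH2, N-cadherin, read 68.5, 66.6 and 53.6 CPM in R5 and 101, 97.5 and 86.1 CPM in R6 (log2 -0.60, adjusted p = 0.029), and was the only called one of 15 cadherins. CD24, a surface glycoprotein, was 0.62 lower (adjusted p = 0.0047). Clustered protocadherins gave no call among 14 tested. Isoforms of the alpha and of the gamma cluster share 3′ exons, so that reads cannot be assigned between them.

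Growth programmes gave no call. None of 50 DNA replication genes, 59 mitosis genes, 17 cell cycle inhibitors and cyclins or 43 ribosome biogenesis and MYC network genes was called, with medians of 0.02, -0.03, -0.02 and 0.04. No member of these 4 lists was beyond 0.5 on the log2 scale in either direction, as against 10989 of 11710 genes tested that were within it. TOP2A and CENPF, mitotic genes, differed by 0.06 and -0.07, RRM1 and MCM7, of DNA replication, by -0.01 and 0.13, and NPM1 and NCL, of the nucleolus, by 0.18 and 0.05, with adjusted p-values from 0.50 to 0.98. CDK4 and CCND2 differed by -0.02 and 0.00. With the surrogate variable the only call in the 4 lists was CCND1, cyclin D1, at 190, 250 and 214 CPM in R5 and 167, 194 and 169 CPM in R6 (adjusted p = 0.033). The 76 respiratory chain genes (median 0.09), 78 ribosomal protein genes (0.06), 35 proteasome genes (0.00), 38 sterol and fatty acid genes (0.01) 25 immediate-early and heat shock genes (0.11), 29 imprinted genes (-0.08) and 39 replication histones (0.01) held no call in the fit without it. With the surrogate variable 2 respiratory chain, 2 ribosomal protein and 2 sterol genes were called higher and 1 replication histone lower.

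Of the metabolic lists, the one of ATF4 and stress genes held 2 calls, and those of glycolysis and of sterol synthesis 1 and 0. ATF4 is the transcription factor made when amino acids are short, and it drives enzymes of asparagine, serine, proline and one-carbon synthesis together with amino acid transporters. Of 36 tested genes of ATF4 and of the endoplasmic reticulum stress response, 2 were higher in R5, none lower, and 26 had a positive log2 fold change (median 0.10). Over all genes tested it was positive for 5641 of 11710. Respiratory chain genes (58 of 76) and ribosomal protein genes (59 of 78) leaned the same way, and mitosis genes (25 of 59) did not. ASNS, asparagine synthetase, on chromosome 7 (97851677 to 97872542), read 196, 249 and 263 CPM in R5 and 137, 106 and 135 CPM in R6, with S9CC13_R6 at 137, 126 and 141 CPM. Every R5 value lay above every R6 value, and ASNS was 1.87-fold higher (log2 0.91 ± 0.12, adjusted p = 0.0057). SLC7A5, the large neutral amino acid transporter, read 69.1, 75.3 and 70.2 CPM in R5 and 47.5, 40.2 and 38.8 CPM in R6 (log2 0.76, adjusted p = 0.020).

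Enzymes next to these in metabolism, outside the list, were called as well. PCK2, mitochondrial phosphoenolpyruvate carboxykinase, was 1.15 higher (adjusted p = 0.0057), PYCR1, of proline synthesis, 0.62 higher (adjusted p = 0.022), and GPT2, the mitochondrial alanine transaminase, 0.51 higher (adjusted p = 0.032). They were picked here after their values were seen. With the surrogate variable the list gave 7 calls, all higher in R5: SLC3A2, PHGDH, PSAT1, SHMT2 and ALDH1L2 joined ASNS and SLC7A5. The regulators ATF4, ATF3 and CHAC1 and the chaperones HSPA5 and CALR were not called in either fit, with log2 fold changes of 0.10, 0.10, -0.05, 0.18 and 0.02. LDHA, lactate dehydrogenase, was the 1 called gene of 37 glycolysis and hypoxia targets, at 169, 164 and 181 CPM in R5 and 114, 94.2 and 117 CPM in R6 (log2 0.67, adjusted p = 0.014). DDB2 was the 1 called gene of 26 p53 targets (log2 0.77, adjusted p = 0.027).

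ATF4 binds a short composite element, and the windows below show where its core was found, so that genes with and without a difference can be compared at the sequence level. The letters TGATGNAA were searched on both strands in 300-base promoter windows (250 bases before to 50 after the start) from RefSeq on GRCh38. Among the 32 tested list genes with a promoter entry, 6 (18.8%) held a match, beside 155 (1.61%) of 9642 tested genes with an entry and 1003 (3.67%) of all 27305 promoters. The list was compiled from textbook ATF4 and stress genes, so these shares reflect its choice and are not a result of R5 against R6. Sequences run 5′ to 3′ on the gene's strand with the match in capitals. Outside the list, PCK2, GPT2, PYCR1, CARS, YARS and WARS were also searched, picked after their values were seen. Of these only CARS held a match, and it was added below.
ASNS: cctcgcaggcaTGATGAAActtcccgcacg
SLC3A2: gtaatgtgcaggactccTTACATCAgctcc
CARS: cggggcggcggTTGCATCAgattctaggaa
SLC7A1: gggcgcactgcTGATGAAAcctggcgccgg
CHAC1: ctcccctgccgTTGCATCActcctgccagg
HERPUD1: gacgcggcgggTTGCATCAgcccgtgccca
ATF3: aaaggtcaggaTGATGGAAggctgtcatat
The ASNS window is chr7:97872458-97872487 on the minus strand and that of SLC3A2 is chr11:62881719-62881748 on the plus strand. ASNS was called, and SLC3A2 and CARS (log2 0.30 and 0.46) were called with the surrogate variable. SLC7A1, CHAC1, HERPUD1 and ATF3 hold the same letters with log2 fold changes of 0.07, -0.05, -0.43 and 0.10 and no call. SLC7A5, PSAT1, PHGDH, SHMT2 and ALDH1L2 had no match in the window or no entry. The same held for PCK2, GPT2 and PYCR1, called higher in R5, and for YARS and WARS. A match is a description of these letters and not of binding.

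The T>C share of a gene's reads is a relative index of newly made RNA, as no unlabelled library gives a background of conversions. It was compared in 1 model over T>C and unconverted reads, and 3 of 11361 genes (0.0264%) were called, with 744 at an unadjusted p under 0.05. PSAT1, phosphoserine aminotransferase of serine synthesis, had 15.6%, 15.8% and 15.7% of its reads converted in R5 at 0h, 3h and 24h and 22.1%, 21.3% and 18.2% in R6. The R5 values were lower and nearly equal, and the ratio was called (log2 -0.46 ± 0.09, adjusted p = 0.037). That call was lost with DESeq2 (adjusted p = 0.14), with the 6 S9CC47 libraries alone (0.067), and without R5 at 0h (0.39), R5 at 3h (0.55), R6 at 0h (0.13) or R6 at 24h (0.26). ASNS had 7.01%, 5.97% and 5.70% in R5 and 9.89%, 8.50% and 7.48% in R6 (log2 -0.51, adjusted p = 0.067), and PHGDH 5.87%, 5.51% and 6.06% against 7.55%, 8.15% and 6.93% (log2 -0.40, adjusted p = 0.075). In T>C reads alone ASNS, SLC7A5 and PCK2 had log2 fold changes of 0.44, 0.25 and 0.48 with adjusted p-values of 0.37, 0.78 and 0.78, beside 0.91, 0.76 and 1.15 in total reads. The T>C share passed the threshold for none of these 3 genes. Over the ATF4 and stress list the share was lower in R5 for 18 of 35 genes (median log2 -0.008). Over all genes tested in total reads it was lower for 5700 of 11354.

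EPHB3, an ephrin receptor, had 38.7%, 35.2% and 37.9% of reads converted in R5 and 28.3%, 28.2% and 26.9% in R6 (log2 0.62, adjusted p = 0.0094). PKD1, polycystin 1, had 18.5%, 20.0% and 16.7% in R5 and 8.37%, 8.87% and 10.7% in R6 (log2 1.19, adjusted p = 0.015), although its copies elsewhere on chromosome 16 make its reads uncertain. Neither EPHB3 nor PKD1 was called in total reads (adjusted p = 0.57 and 0.68).

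**Figure D4:**
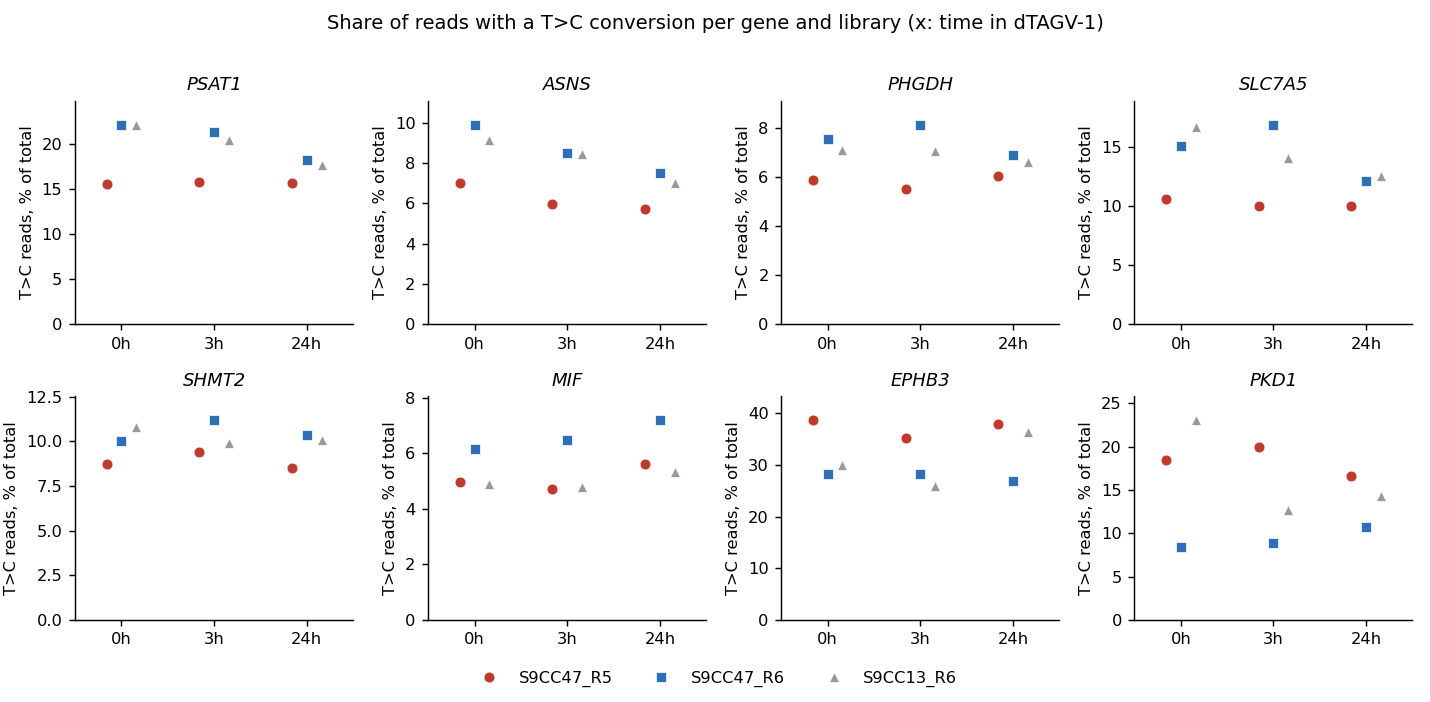
Percent of a gene's reads that carried a T>C conversion (y axis from 0) at 0h, 3h and 24h for 8 genes, 1 point per library and 1 colour per culture. In S9CC47_R5 (red circles) the share was lower than in S9CC47_R6 (blue squares) for PSAT1, ASNS, PHGDH, SLC7A5, SHMT2 and MIF, and higher for EPHB3 and PKD1. PSAT1, EPHB3 and PKD1 passed the test, and the others were picked for display. In the ATF4 and stress list 18 of 35 genes had a lower share in R5.

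In newly made RNA, 54 of 12037 genes (0.449%) were called in T>C reads, 35 higher in R5 (0.291%) and 19 lower (0.158%). Of the 68 genes called in total reads, 33 were also called in T>C reads and 66 of the 67 measured in both had the same sign. These are not independent, since T>C reads are part of total reads. Among genes with a mean of 50 or more scaled reads and no overlap, the 5 largest falls were ANKRD1 (-2.76), SYT1, SHOX2, TBX2 and DDAH1, an enzyme of nitric oxide control (-1.13). The 5 largest rises were GAK, MLST8, TSPAN4, CYGB and C12orf57, and their pattern over the 3 cultures differed from that of the patterning genes. GAK, a clathrin uncoating kinase, read 55.6, 73.0 and 58.3 CPM of total reads in R5 and 35.0, 30.6 and 16.9 CPM in S9CC47_R6, but 65.0, 76.8 and 65.1 CPM in S9CC13_R6. C12orf57 read 162, 241 and 226 CPM in R5, 105, 85.6 and 60.05 CPM in S9CC47_R6 and 217, 223 and 249 CPM in S9CC13_R6. For both genes S9CC13_R6 lay with R5, and the difference between R5 and R6 was smallest at 0h and largest at 24h, at 0.67 and 1.79 for GAK and 0.62 and 1.91 for C12orf57.

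Others among the largest rises in total reads had this shape. CRIP2 (log2 1.26, S9CC13_R6 minus S9CC47_R6 1.53), EML3 (1.23 and 1.07), TSPAN4 (0.76 and 0.94) and GALK1 (1.20 and 1.43) were lowest in S9CC47_R6 of the 3 cultures. OLFM3 (1.66 and -0.67), CYB5R2 (1.28 and 0.05) and HMX1 (1.24 and 0.07) were not. SAMD11 (1.67, adjusted p = 0.022), ENG, the endothelial TGF-beta co-receptor endoglin (1.34, adjusted p = 0.037), HTR3B, a serotonin receptor subunit (-2.03, adjusted p = 0.016), and SNTG1, a syntrophin (-1.76, adjusted p = 0.016), were further calls. MLST8 and CYGB, called in T>C reads, had 0.95 (adjusted p = 0.091) and 0.77 (adjusted p = 0.074) in total reads. The call on C12orf57 was lost with the surrogate variable (adjusted p = 0.15).

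Libraries also varied along an axis that did not separate the differentiations. The surrogate variable was below 0 in the 4 libraries with T>C shares of 15.9% to 18.8% and above 0 in the 5 with 19.5% to 21.3%, among them all 3 libraries of 24h, and 1715 genes were called for it. It was computed from these same counts, with time and culture in its model. The 1715 calls and its lack of separation between the differentiations are therefore a description and not a test. The T>C share of R5 minus that of R6 was 1.33 percentage points at 0h, -1.38 at 3h and -0.874 at 24h. Across 10701 genes with a mean of 50 scaled reads or more, the R5 minus R6 differences at 3h and 24h correlated at r = 0.65, and the 0h difference with these at -0.07 and -0.16, a description across genes of the same 6 libraries. Of the 68 calls, 67 were also made with the surrogate variable and 67 with the library's T>C share as a covariate. What the axis stands for was not tested.

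**Figure D5:**
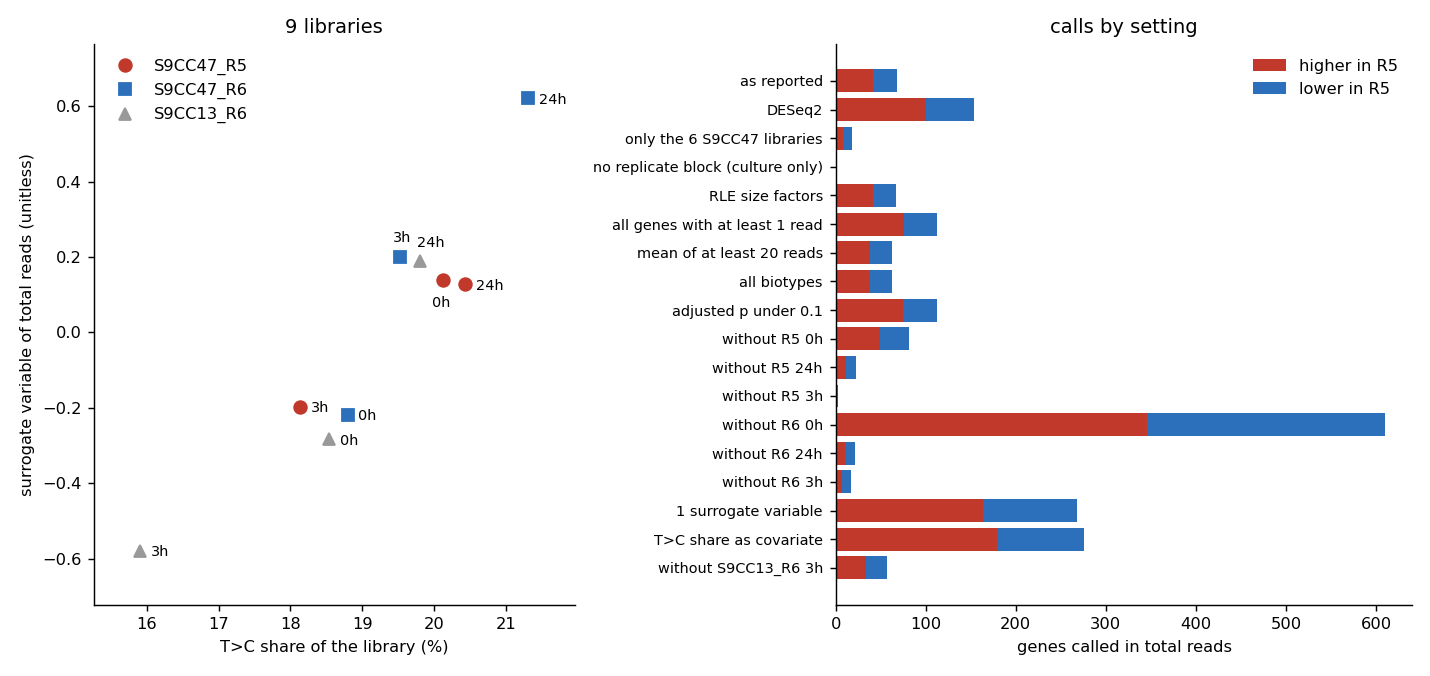
Left, the surrogate variable of total reads (y axis, no unit) against the T>C share of the library in percent (x axis) for the 9 libraries, labelled by time. Right, genes called higher (red) or lower (blue) in R5 than in R6 in total reads under each setting, from 1 without times as pairs to 610 without the 0h library of S9CC47_R6.

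Markers of other cell types were looked for as well. Of the pluripotency markers, TDGF1, LEFTY2 and GDF3 had no read in the 6 S9CC47 libraries, and L1TD1 and LIN28A differed by 0.08 and 0.22 (adjusted p = 0.79 and 0.36). Epithelial markers summed to 3.16 to 5.24 CPM in R5 and 2.33 to 3.61 CPM in R6, and mesoderm and endoderm markers to 1.40 to 2.12 and 0.764 to 1.80 CPM. No gene was called among the chondrocyte (9 tested), osteoblast (4), fibroblast (12), Schwann cell and glial (3), melanocyte (3), endothelial and blood (2) or skeletal muscle markers (2). Neural progenitor markers, in which POU3F3 was the call, summed to 1223 to 1271 CPM in R5 and 1322 to 1559 CPM in R6. The part that these cells or the contractile markers had in the differences above was not tested.

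S9CC13_R6 against S9CC47_R6 gave 51 calls (0.436%) in total reads and 94 (0.781%) in T>C reads, where R5 against R6 gave 68 and 54. In total reads the order turned with DESeq2 (269 against 154), and with the T>C share as a covariate the counts were 25 against 276. The comparisons share the S9CC47_R6 libraries, and whether their extents differ was not tested. For SYT1 the other clone read 10.8, 8.23 and 9.17 CPM, near S9CC47_R6, while for ANKRD1 and TAGLN its values at 3h and 24h lay near R5. The change of the R5 minus R6 difference under dTAGV-1 was called for 29 genes (0.248%) in total reads, 7 upward (0.0598%) and 22 downward (0.188%), which became 31 upward and 11 downward with the T>C share as a covariate, and for 71 (0.59%) in T>C reads, 23 upward (0.191%) and 48 downward (0.399%).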

How the data were processed

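SLAM-seq libraries of 3 cultures (S9CC13_R6, S9CC47_R5 and S9CC47_R6) at 3 times were grouped from the sample titles. The authors deposited raw counts per gene symbol, one table of total reads and one of T>C reads. Per their methods, 3′ end reads were trimmed with skewer and mapped and counted with slamdunk, and the submitters' processing notes name hg38. These are unnormalized, and molecular identifiers are not mentioned, so intervals cover counting error only. Strand handling and the counted intervals are not given in the sources used here. Of 18970 symbols, 18451 matched GENCODE 44 directly, 11 a RefSeq symbol and 390 a synonym, and coordinates are those of GENCODE on hg38.

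Protein-coding genes with 1 CPM or more in 3 or more of the 9 libraries were tested with edgeR's quasi-likelihood test (edgeR 4.0.16, R 4.3.3) after TMM scaling, with time as the pairing block and culture as the factor, over all 9 libraries (4 residual degrees of freedom). Calls used a Benjamini-Hochberg adjusted p under 0.05. CPM values of genes are TMM-scaled, and summed levels of lists are CPM of the library total. The T>C share per gene was the interaction of read kind with culture in 1 model over T>C and unconverted counts. Library shares were compared with an exact permutation test. Times pair the samples because the labels give each culture the same times. Whether the libraries of a culture were separate wells is not stated, so p-values may measure technical spread.

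Genes were named by rule: SOX9, the 10 largest rises and 10 largest falls among called genes with a mean of 50 or more scaled reads and no overlap between groups, 5 and 5 for T>C reads and for T>C shares, up to 4 called members per list and direction (mean of 20 or more reads) or, without a call, the 2 most abundant, and up to 5 genes whose difference changed under dTAGV-1. Of the genes so selected, 1 is not reported here. Other genes named were chosen after their values were seen. The genes, lists and tests were chosen with earlier results of these data known. Gene lists come from textbook knowledge of pathways and cell types.

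On simulated counts with the means and library sizes of these libraries, 37% of genes changed by 0.5 and 83% of genes changed by 1 on the log2 scale were recovered in total reads (R5 against R6, 11710 genes), and 27% and 62% in T>C reads (12037 genes). The T>C share per gene recovered 9% and 55% (11361 genes). For the change under dTAGV-1 it was 3% and 34% in total reads and 0% and 7% in T>C reads. Unchanged genes called were 6 in total reads, 6 in T>C reads and 7 in the T>C share. For the change under dTAGV-1 they were 8 in total reads and 0 in T>C reads. The simulated counts had a pooled mean per gene, independent noise, no effect of time and no axis shared between libraries. These rates therefore describe a simpler setting than these data. Alternatives were DESeq2 1.42.0, RLE size factors, other filters and thresholds, only the 6 S9CC47 libraries, no pairing, each library left out and, chosen after seeing the data, 1 surrogate variable (sva 3.50.0), the library's T>C share as a covariate and the fit without the 3h library of S9CC13_R6.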

Additional observations from a re-analysis of the deposited data

Results flagged for a closer look

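The difference between R5 and R6 changed after dTAGV-1 for a few genes, by an edgeR test of the difference at 3h and 24h against that at 0h. This test called 29 genes in total reads (0.248%; 7 upward, 22 downward) and 71 in T>C reads (0.59%; 23 and 48). In total reads RCC2, a regulator of mitotic chromosomes, changed by -1.89 on the log2 scale (adjusted p = 0.00037): R5 was higher than R6 by 0.93 at 0h, and the differences at 3h and 24h were -0.87 and -1.05. DTD1, a tRNA editing enzyme, changed by -1.55 (adjusted p = 0.0069), TNS3, a focal adhesion tensin, by -1.44 (adjusted p = 0.031) and NDUFB3, of respiratory complex I, by -1.72 (adjusted p = 0.031). RPL28, a ribosomal protein, went the other way by 0.98 (adjusted p = 0.031), with differences of -0.08, 0.95 and 0.84.

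In T>C reads TXN, thioredoxin, changed by -2.95 (adjusted p = 4.7e-05), with differences of 1.26, -1.25 and -2.12. CALM2, a calmodulin, changed by -1.11, SNAI1, the crest transition factor, by -1.88, SLC35B2, a Golgi sulfate donor transporter, by -2.02 and TNS3 by -1.40, with adjusted p-values of 0.0045, 0.0046, 0.0076 and 0.0076. With the library's T>C share as a covariate, TXN kept an adjusted p of 1.0e-09, whereas CALM2, SNAI1, SLC35B2 and TNS3 had 0.71, 0.30, 0.89 and 0.30. DESeq2 gave TXN 0.017 and the other 4 genes 0.36, 0.57, 0.64 and 0.57, and it called 1 gene in T>C reads. In total reads the 5 named genes stayed under 0.05 with the covariate, but they are among only 6 of the 29 calls that did, and of the 42 genes then called 31 went upward and 11 downward. The 0h side of each difference rests on 1 library per differentiation, and the library T>C share of R5 minus R6 was 1.33 percentage points at 0h, -1.38 at 3h and -0.874 at 24h.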

How the results depend on the processing

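Calls of R5 against R6 in total reads (68) became 154 with DESeq2, 18 with only the 6 S9CC47 libraries, 113 with all genes of at least 1 read, 113 at an adjusted p under 0.1, 268 with 1 surrogate variable and 276 with the T>C share as a covariate. Without the replicate block of times as pairs 1 call was left, 4 in T>C reads, and 16 and 13 for S9CC13_R6 against S9CC47_R6 in total and T>C reads. Leaving out 1 library gave 3 to 610 calls: 3 without R5 at 3h, 23 without R5 at 24h, 610 without R6 at 0h, 21 without R6 at 24h and 17 without R6 at 3h. In T>C reads (54) the counts were 141 with all genes, 82 at 0.1, 125 with the surrogate variable and 167 with the T>C share, and 8 to 312 with 1 library left out: 8 without R5 at 3h, 27 without R5 or R6 at 24h, 312 without R6 at 0h and 14 without R6 at 3h. The 3 calls in T>C shares became 20 with all genes, 10 at 0.1 and 0 to 9 with 1 library left out: 0 without R5 at 3h, 1 without R6 at 24h, 5 without R5 at 24h, 8 without R6 at 3h and 9 without R6 at 0h. Change under dTAGV-1 gave 87 with DESeq2 and 465 at 0.1 in total reads, and 1 with DESeq2, 197 at 0.1 and 9 with the T>C share in T>C reads. S9CC13_R6 against S9CC47_R6 gave 269 with DESeq2, 122 at 0.1 and 25 with the T>C share in total reads, and 193, 30 and 10 in T>C reads at 0.1, with the surrogate variable and with the T>C share. The 16 lists with a call became 9 with 6 libraries, 30 with either covariate and 1 to 36 with 1 library left out: 1 without R5 at 3h, 7 without R5 at 24h or R6 at 3h, 8 without R6 at 24h and 36 without R6 at 0h. The difference in library T>C share ran from -0.85 to 0.41 with 1 library left out, and turned positive without R5 at 3h (0.40) or R6 at 24h (0.41). No named gene that was called under either setting turned its sign. Named genes lost their call in 220 gene and setting pairs and gained one in 10. In 1641 pairs the call did not change, which includes genes called in neither fit. The cause of these changes was not tested. Depth limits genes under about 1 CPM, where few reads carry a conversion, and 1 culture per differentiation limits every comparison.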
